A study of Mus musculus with 4 samples.

Results

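The simple epithelial keratins are the intermediate filament genes of one-layered epithelia such as the lining of the gut. They were taken here as Krt7, Krt8, Krt18, Krt19, Krt20, Krt23 and Krt80, by gene name, which gave 7 of 55203 genes, and the level of each was the sum of FPKM over its transcripts. FPKM counts fragments relative to transcript length and to the mapped fragments of the library, so it can be set side by side between genes. The study measured bulk RNA in 4 libraries of intestinal tissue from wild-type (WT) C57BL/6NTac mice, adult males of 8 to 12 weeks kept specific pathogen free (SPF), as a reference for an imaging method that counts RNA in tissue (MERFISH). For 2 libraries, called RVC, the tissue was treated with ribonucleoside vanadyl complex at 4 mM, which inhibits ribonucleases, and the other 2 are labelled fresh frozen. The handling text attached to the fresh-frozen libraries also names the RVC rinse, so how that tissue was handled is not clear from the labels. The labels give every library a different batch number, so an effect of batch and one of group cannot be told apart. Nothing states that the libraries came from separate animals, so a p-value measures only the spread between these samples, which may be technical.

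The sample labels name ileum, while the handling and design texts name distal colon. A list of 12 colon genes summed to 4768 to 6932 FPKM in the 4 libraries, and a list of 13 ileum genes summed to 39.6 to 72.2 FPKM, with 4 of its genes at 0. Hoxb13, a homeobox gene of the hindgut, had a mean of 122 FPKM and Fabp6, the ileal bile acid binding protein, 3.37 FPKM. The most abundant gene of the colon list was Car4, at a mean of 1803 FPKM, and that of the ileum list Apob, at 23.7 FPKM. The libraries are called intestinal tissue here. Relative depth, read from the coverage that 1 FPKM stood for, was 72.6% to 81.8% of that of the deepest library, fresh frozen 2. In bulk tissue, fewer cells of a type and less RNA per cell cannot be told apart, and this holds for every level below.

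Keratins are built as obligate pairs: a type I (acidic) chain joins a type II (basic) chain, the pairs assemble into filaments, and a chain without a partner is degraded. KRT8 and KRT18 form the basic filament of simple epithelia, and in the intestine KRT19 and KRT20 serve as further type I partners. These filaments anchor at desmosomes and hemidesmosomes and give the cell sheet its resistance to stress. Here Krt8, Krt7 and Krt80 are type II, and Krt18, Krt19, Krt20 and Krt23 are type I. All coordinates are GRCm39. Krt8 and Krt18 lie side by side on chromosome 15, 23.7 kb apart, and Krt80 and Krt7 lie 40.9 kb apart on the same chromosome. Krt20 and Krt23 are neighbours on chromosome 11, 39.8 kb apart, and Krt19 lies 647.7 kb further on, with 11 other keratins between.

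The coding sequences show what the 2 types share and where they part. Identity between coding sequences was 50.3% to 59.8% within type I, 54.8% to 68.0% within type II, and 41.8% to 46.8% between the types. Krt8 and Krt7 were the most alike pair, at 68.0%.

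Krt8 was the most abundant of the 7 and nearly the only type II keratin RNA. Krt8 (ENSMUSG00000049382, chr15:101905133-101912917, minus strand) was at 1483 and 1463 FPKM in RVC 1 and 2, against 1613 and 1178 FPKM in fresh frozen 1 and 2, a mean of 1434 ± 183.5 (SD, n = 4). The fresh-frozen libraries held both the highest and the lowest value, with the RVC libraries between them. By its mean, Krt8 ranked 30 among 21431 protein-coding genes. It made up 98.3% to 98.7% of the type II sum in each library.

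Krt7, the type II keratin of ducts and glands, was far lower. Krt7 (ENSMUSG00000023039, chr15:101308924-101328194, plus strand) was at 20.3 and 19.3 FPKM in RVC 1 and 2, against 27.3 and 19.3 FPKM in fresh frozen 1 and 2, a mean of 21.5 ± 3.86 (SD, n = 4). Fresh frozen 1 stood above the other 3, which lay close together. Krt80 (ENSMUSG00000037185, chr15:101245325-101268043, minus strand), a type II keratin known near cell margins, was at 0.550 and 0.439 FPKM in RVC 1 and 2, against 0.233 and 0.210 FPKM in fresh frozen 1 and 2. Both RVC values were above both fresh-frozen values, at levels below the 1 FPKM needed for testing.

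Type I RNA was divided among 3 abundant genes. Krt19 (ENSMUSG00000020911, chr11:100031636-100039491, minus strand), the smallest keratin, was at 1233.5 and 1159 FPKM in RVC 1 and 2, against 1445 and 940.2 FPKM in fresh frozen 1 and 2, a mean of 1194 ± 208 (SD, n = 4) and rank 38. Its order over the libraries was that of Krt8, with fresh frozen 1 highest and fresh frozen 2 lowest. Krt20 (ENSMUSG00000035775, chr11:99319229-99328976, minus strand), a keratin of differentiated gut epithelium, was at 586 and 488 FPKM in RVC 1 and 2, against 499 and 410.2 FPKM in fresh frozen 1 and 2, a mean of 496 ± 72.0 (SD, n = 4) and rank 113. Here RVC 1, not fresh frozen 1, was the highest library, and the groups overlapped.

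Krt18, the classic partner of Krt8, was lower than both. Krt18 (ENSMUSG00000023043, chr15:101936615-101940462, plus strand) was at 192 and 183 FPKM in RVC 1 and 2, against 217 and 155 FPKM in fresh frozen 1 and 2, a mean of 187 ± 25.4 (SD, n = 4) and rank 312. Fresh frozen 1 was again highest and fresh frozen 2 lowest. Krt23 (ENSMUSG00000006777, chr11:99368800-99383963, minus strand), a type I keratin first described in pancreatic cells, was at 3.39 and 1.63 FPKM in RVC 1 and 2, against 3.70 and 3.02 FPKM in fresh frozen 1 and 2, a mean of 2.93 ± 0.913 (SD, n = 4). RVC 2 was the lowest library. The Krt23 transcript is 1565 nt long in the files and 3492 nt in the GENCODE vM39 annotation, and FPKM divides by length, so its level relative to the other keratins depends on which model holds.

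**Figure D1:**
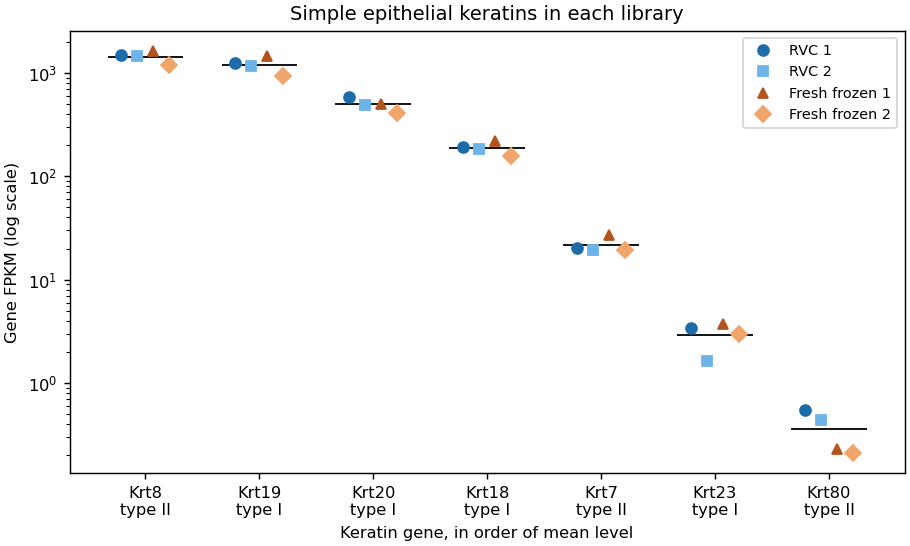
Gene FPKM on a log scale (vertical) of each keratin (horizontal, in order of mean level), with 1 point per library and the mean of the 4 as a line. Levels run from a mean of 1434 FPKM for Krt8 to 0.358 FPKM for Krt80, and the 4 libraries of a gene lie close together beside the distance between most genes.

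The order Krt8, Krt19, Krt20, Krt18, Krt7, Krt23, Krt80 held in every library. Krt8 and Krt19 had ranges that overlapped over the libraries, but within a library Krt8 was the higher in all 4, by 1.12-fold to 1.26-fold (mean ratio 1.21 ± 0.067, SD, n = 4). The other neighbours had ranges that did not overlap: Krt19 was 2.11-fold to 2.90-fold above Krt20, and Krt20 was 2.30-fold to 3.05-fold above Krt18. Krt18 was 7.95-fold to 9.52-fold above Krt7.

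Type I keratin RNA exceeded type II RNA in all 4 libraries, by a margin that varied little. The type I sum was 2015 and 1832 FPKM in RVC 1 and 2, against 2164 and 1509 FPKM in fresh frozen 1 and 2, and the type II sum was 1503, 1483, 1641 and 1197 FPKM in the same order. The type I share of the 7 genes was 57.3% and 55.3% in RVC 1 and 2, against 56.9% and 55.8% in fresh frozen 1 and 2, a mean of 56.3% ± 0.94 (SD, n = 4). The groups overlapped, and the mean share in RVC minus that in fresh frozen was -0.05 percentage points (exact permutation test, two-sided, p = 1.0, with 0.333 the smallest p that 2 against 2 libraries allow). The sign of that difference turned when single libraries were left out, to 0.95 points without RVC 2 and 0.51 points without fresh frozen 1. Without Krt20, the ratio of type I to type II RNA was 0.950, 0.906, 1.015 and 0.918 in the same order of libraries. With the most abundant transcript of each gene in place of the sum, the mean type I share was 53.6% ± 0.71 (SD, n = 4). Krt8 made up 43.0% of the 7-gene sum on average, Krt19 35.7%, Krt20 14.9% and Krt18 5.61%.

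**Figure D2:**
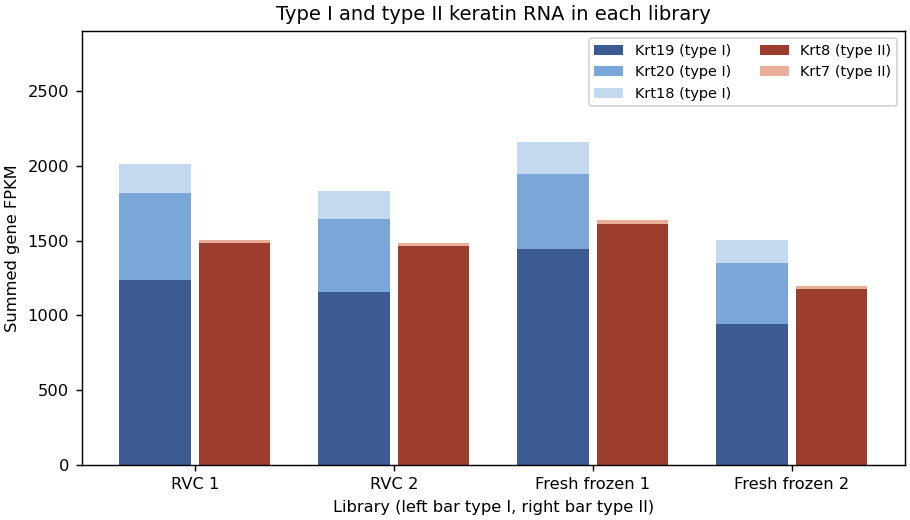
Summed gene FPKM (vertical) of type I keratins (left bar, blue) and type II keratins (right bar, red) in each library (horizontal), stacked by gene, with Krt23 and Krt80 too low to draw. The type I bar is the taller in all 4 libraries, and both bars are lowest in fresh frozen 2.

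The level of Krt18 relative to Krt8 varied less than either gene. Krt18 stood at 12.9% of Krt8 and 12.5% in RVC 1 and 2, against 13.5% and 13.2% in fresh frozen 1 and 2. The coefficient of variation (SD over mean) was 2.99% for this ratio, against 12.8% for Krt8 and 13.6% for Krt18. Both RVC ratios were below both fresh-frozen ratios (exact permutation test, two-sided, p = 0.333, the smallest possible). Krt19 stood at 79.2% to 89.6% of Krt8, with a coefficient of variation of 5.73%. Krt20 stood at 30.9% to 39.5% of Krt8, with a coefficient of variation of 10.5%. Genes of 1 library share its depth and tissue composition, and the part of these in the steady ratios was not tested.

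No keratin was called between RVC and fresh-frozen tissue. Of the 7 genes, 6 passed the filter of a mean of 1 FPKM and were tested with limma on log2(scaled FPKM + 1), and 0 had an adjusted p under 0.05, where 0.0363% of the 13771 genes tested did (0.0145% higher and 0.0218% lower in RVC). Before adjustment, p was under 0.05 for 0 of the 6, against 18.4% of all genes. In 0 of the 6 the groups failed to overlap, against 53.2% of all genes (26.5% higher and 26.6% lower in RVC). The median log2 difference, RVC minus fresh frozen, was 0.04 over the 6 keratins and 0.01 over all genes.

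The intervals reflect only the spread between these libraries, in which batch and group cannot be told apart. The log2 difference of Krt8 was 0.10 (SE 0.18, 95% interval -0.33 to 0.53, limma adjusted p = 0.788). That of Krt20 was 0.25 (SE 0.15, interval -0.11 to 0.61, adjusted p = 0.407), the highest value of the 6. For Krt19 it was 0.04 (SE 0.21, interval -0.45 to 0.53) and for Krt18 0.04 (SE 0.16, interval -0.34 to 0.41), and both signs turned when levels were scaled to a list of intestinal epithelial genes. Krt7 gave -0.20 (SE 0.16, interval -0.57 to 0.17) and Krt23 -0.35 (SE 0.24, interval -0.92 to 0.22). The value of Krt23 was 0.02 without RVC 2, and that of Krt7 was 0.02 without fresh frozen 1. Without fresh frozen 2 the values of Krt8, Krt18 and Krt19 were -0.11, -0.19 and -0.25. In a fit with no filter on low values, Krt80 gave a log2 difference of 0.29 (SE 0.07, limma adjusted p = 0.402).

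**Figure D3:**
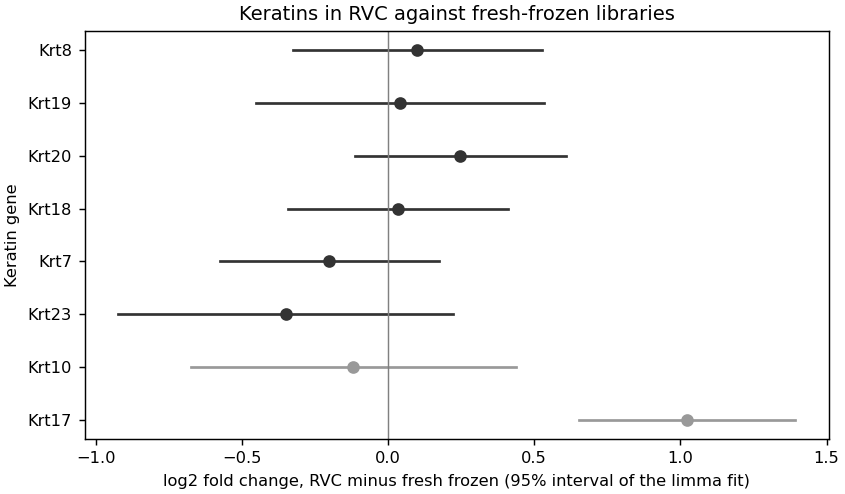
The log2 difference between RVC and fresh-frozen libraries (horizontal, RVC minus fresh frozen, from the limma fit) of each tested keratin (vertical), with 95% intervals as bars, the simple epithelial keratins in black and the other tested keratins in grey. All 6 black intervals span 0, and the interval of Krt17 does not.

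For Krt8, Krt18 and Krt19 the highest and the lowest library were both fresh frozen. Fresh frozen 2 was the lowest library for 5 of the 7 keratins, and fresh frozen 1 was the highest for 5 of 7. Over all tested genes, on scaled values, fresh frozen 2 was lowest for 25.1% and fresh frozen 1 highest for 27.4%. The keratin counts use FPKM before scaling and include Krt80, which was not tested, so the 2 sides are not fully alike. Fresh frozen 2 was also the deepest library and fresh frozen 1 the shallowest, and the part of depth was not tested. The 7 keratins made up 0.483%, 0.444%, 0.556% and 0.433% of the FPKM of genes with a transcript of at least 300 nt, in RVC 1, RVC 2, fresh frozen 1 and fresh frozen 2 (exact permutation test, two-sided, p = 1.0).

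**Figure D4:**
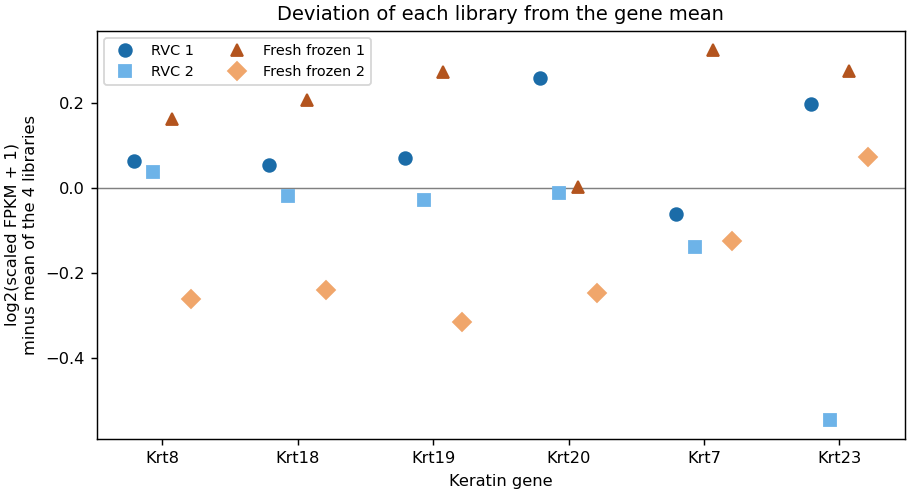
Deviation of each library from the gene's mean over the 4 libraries (vertical, log2 of scaled FPKM + 1) for the 6 tested keratins (horizontal). Krt8, Krt18 and Krt19 show 1 order of libraries, from fresh frozen 1 at the top to fresh frozen 2 at the bottom, while Krt20 has RVC 1 at the top.

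By the distance between their library patterns, Krt18 was among the nearest genes of both Krt8 and Krt19, and Krt20 lay further off. The measure was the Euclidean distance between centred log2 values over the 4 libraries, among 5041 genes of at least 10 FPKM. Krt18 ranked 13 among the genes nearest to Krt8, while Krt19 ranked 134, Krt20 940 and Krt7 1502. For Krt18, Krt8 ranked 21 and Krt19 41. For Krt19, Krt18 ranked 9 and Krt8 ranked 22. For Krt20, Krt8 ranked 862, while Vil1, a microvillus protein picked after the values were seen, ranked 39. The epithelial genes Cdh1 and Epcam ranked 933 and 1190 for Krt20, further off than Krt8. The 3 nearest genes were Agpat2, Pgk1 and Retsat for Krt8, Jpt1, Creb3 and Khdrbs3 for Krt18, Mtarc2, Jpt1 and Creb3 for Krt19, and Batf2, Mvp and Rhpn2 for Krt20. These are descriptions over 4 libraries, in which many genes share a pattern.

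The 7 genes had 17 transcripts in the files, of which 10 passed the filter. Krt8, Krt18, Krt20 and Krt23 each had 1. Of the 10, 0 were called by limma, where 0.00415% of 24080 transcripts were, and adjusted p ran from 0.380 to 0.995. In 2 of the 10 the groups did not overlap, both lower in RVC, against 50.4% of all transcripts and 24.9% in that direction: the 546-nt transcript of Krt19 and the 4094-nt transcript of Krt7. For Krt19, the 1576-nt protein-coding transcript carried 80.1% to 84.8% of the gene's FPKM, and an 823-nt transcript with no defined coding sequence 14.4% to 19.3%. For Krt7, a 642-nt protein-coding transcript carried 41.3% to 52.9%, the 4094-nt protein-coding transcript 32.4% to 38.7%, and a 3563-nt transcript with a retained intron 13.6% to 24.5%. The division between overlapping transcripts is an estimate by Cufflinks. The authors' bounds lay 1.20% to 1.37% from the value for Krt20 and 4.19% for Krt8, but 19.7% to 25.4% for the 642-nt Krt7 transcript and 16.7% to 26.1% for Krt23.

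**Figure D5:**
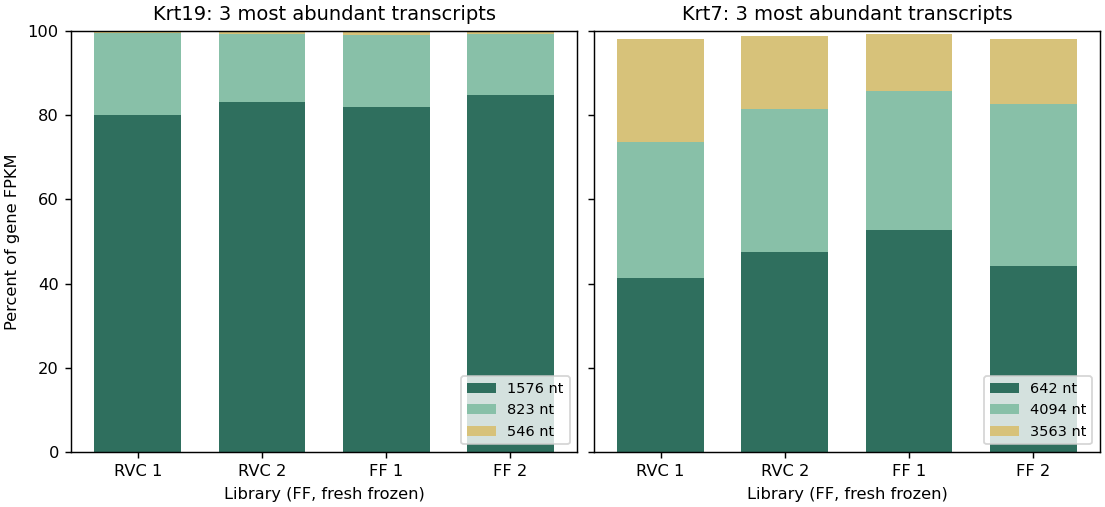
Percent of gene FPKM (vertical) in the 3 most abundant transcripts of Krt19 (left) and Krt7 (right) in each library (horizontal). Krt19 rests mostly on its 1576-nt transcript, while Krt7 is divided among 3 transcripts whose shares vary more between libraries.

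A near-identical copy limits how exactly the Krt8 level is known. Krt8-ps (chr7:23056550-23057494), a processed pseudogene, was listed at 75.7 and 66.8 FPKM in RVC 1 and 2, against 85.7 and 63.8 FPKM in fresh frozen 1 and 2, which is 4.57% to 5.42% of Krt8. Its order over the libraries was that of Krt8. The copy was 98.6% identical to Krt8 over 941 bases, from coding base 1 to 941 of 1470, with 13 differences and a longest identical run of 299 bases. Of the 792 windows of the read length of 150 bases in that stretch, 19.4% were identical, so a read from such a window matches both copies. At most 2 differences were found in 74.7% of the windows. How reads that differ between the copies were placed was not tested, nor was the use of the paired read. The stretch of 70 bases below shows the copies side by side, 5′ to 3′, with the 4 differing bases in capitals.
Krt8 (coding bases 807 to 876): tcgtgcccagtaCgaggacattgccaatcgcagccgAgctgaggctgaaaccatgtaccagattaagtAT
Krt8-ps (chr7:23057356-23057425, plus strand): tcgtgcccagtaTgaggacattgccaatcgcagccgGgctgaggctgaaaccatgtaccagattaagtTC
Counting Krt8-ps as Krt8 gave a type I share of 55.7% ± 0.92 (SD, n = 4). For Krt18, the processed pseudogenes Gm5200, Gm17847 and Gm7943 aligned to its transcript at 90.2%, 86.5% and 83.2% identity, and all 3 were listed at 0 in every library. Gm36026, a long noncoding RNA on the strand opposite to Krt8 that overlaps its 5′ end, was at 1.93 to 2.64 FPKM, and without strand in the counting its reads and those of Krt8 cannot be told apart there.

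The keratins of stratified epithelia, hair and nails were nearly absent. Of 47 other keratin genes, 26 were at 0 in all 4 libraries, and together the 47 made up 0.127% to 0.213% of all keratin FPKM. A mean of at least 1 FPKM was reached by 2 of them, both type I. Krt10, a keratin of differentiated epidermis, was at 1.30 and 2.12 FPKM in RVC 1 and 2, against 1.40 and 2.53 FPKM in fresh frozen 1 and 2, and its groups overlapped. Krt17, a keratin of injured and appendage epithelium, was at 1.85 and 2.19 FPKM in RVC 1 and 2, against 0.525 and 0.447 FPKM in fresh frozen 1 and 2. Both its RVC values were above both fresh-frozen values, with a log2 difference of 1.02 (SE 0.16), which did not pass the adjusted threshold (limma adjusted p = 0.112).

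Other cell types that carry these keratins were checked by their markers. Of 12 squamous epithelial genes, 1 passed the filter, and the list summed to 2.84 to 3.55 FPKM, with Krt4 and Krt6a at 0 in all libraries and Krt5 at 0 to 0.037 FPKM. Mesothelium, the outer lining of the gut, also makes Krt7, Krt8, Krt18 and Krt19. Its 8 markers summed to 21.3 to 27.2 FPKM, led by Msln at 7.10 to 9.28 FPKM, and its part in the Krt7 level was not tested. The 16 intestinal epithelial genes were all tested and 0 were called, with a median log2 difference of 0.09 and 8 genes higher and 2 lower in RVC without overlap (26.5% and 26.6% of all genes tested). Lgals4, a lectin of gut epithelium, was at 1493 to 2099 FPKM, and Epcam, an epithelial adhesion protein, at 665 to 784 FPKM, both with overlapping groups. Phgr1, among the 8 higher genes, was at 835 and 862 FPKM with RVC and at 609 and 599 FPKM in fresh-frozen tissue. All 11 smooth muscle genes were higher in RVC without overlap, against 26.5% of all genes tested, with a median log2 difference of 0.82 and 0 called (0.0363% of all genes). Their sum was 1394 and 2051 FPKM with RVC and 894 and 929 FPKM in fresh-frozen tissue, and its part in the keratin differences was not tested.

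The other cell type lists differed in how many genes were higher in RVC without overlap, with 0 genes called in each (0.0363% of all genes tested). Without overlap, 9 of 9 tested endothelial genes were higher in RVC (median log2 difference 0.58), where 26.5% of all genes tested were. So were 6 of 6 plasma cell genes (0.46) and 6 of 9 macrophage genes (0.44). Fibroblast genes were nearer to that share, at 4 of 10 (0.26). Of 10 tested goblet cell genes, 1 was higher and 2 were lower without overlap (median 0.06), against 26.5% and 26.6% of all genes tested. Surface colonocytes are the cells in which Krt20 is known to be high. Of their 11 tested genes, 5 were higher and 0 lower in RVC without overlap (median 0.22), against 26.5% and 26.6% of all genes tested. All 12 genes of the list summed to 7880 and 8201 FPKM with RVC and 6334 and 5694 FPKM in fresh-frozen tissue. The RVC 2 sum includes 1327 FPKM of Muc3, which was not tested and was at 0 in the other libraries. Of 10 tested genes of the crypt base and proliferating cells, 0 were higher and 7 lower in RVC without overlap (median -0.24), where 26.6% of all genes tested were lower. The 12 genes of that list summed to 74.8 and 78.6 FPKM with RVC and 105.8 and 127 FPKM in fresh-frozen tissue. The part of these lists in the Krt20 difference was not tested.

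The genes that anchor and regulate keratin filaments were abundant and gave no call. Of 17 genes of desmosomes, hemidesmosomes and plakins, 15 were tested, 0 were called and the median log2 difference was -0.01, with 4 higher and 3 lower in RVC without overlap (26.5% and 26.6% of all genes tested), a share near the background. Dsg2, the desmosomal cadherin of simple epithelia, was at 156, 159, 129 and 134 FPKM in RVC 1, RVC 2, fresh frozen 1 and fresh frozen 2. Perp, a desmosomal membrane protein, had a mean of 103 FPKM, and Jup, the desmosomal plaque protein plakoglobin, 71.9 FPKM. All 13 keratin chaperones and regulators were tested, with 0 called and a median log2 difference of 0.15, and 5 were higher and 1 lower in RVC without overlap (26.5% and 26.6% of all genes tested). Hspb1, a small heat shock protein that associates with keratin filaments, was singled out after its values were seen. It was at 30.2 and 34.1 FPKM with RVC and at 9.90 and 14.3 FPKM in fresh-frozen tissue, a log2 difference of 1.36 (SE 0.18, limma adjusted p = 0.0743) that did not pass the threshold. The most abundant members of the list were Hspa8, a chaperone, at a mean of 354 FPKM, Ywhaz, a 14-3-3 protein, at 233 FPKM, and Csnk1a1, a casein kinase, at 98.8 FPKM.

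Among the filament genes of other cell types, Des was the most abundant, at a mean of 118 FPKM. Of 16 other intermediate filament genes, 9 were tested and 0 were called, with a median log2 difference of 0.29 and 6 higher and 1 lower in RVC without overlap (26.5% and 26.6% of all genes tested). Des, the filament of muscle, was at 135 and 173 FPKM with RVC and at 79.5 and 85.4 FPKM in fresh-frozen tissue. Vim, the filament of mesenchymal cells, was at 53.7 and 63.1 FPKM with RVC and at 37.9 and 34.7 FPKM in fresh-frozen tissue. Both genes had groups that did not overlap, and neither passed the adjusted threshold (limma adjusted p = 0.114 for Des and 0.129 for Vim). Lmna, the nuclear lamin A/C gene, had a mean of 86.7 FPKM.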

How the data were processed

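Libraries were built with KAPA HyperPrep after removal of ribosomal RNA (Ribo-Erase) and read as paired 150-base reads on an Illumina NextSeq, per the labels' protocols. The authors deposited 1 table per library of FPKM values for 141738 transcripts, made with TopHat2 2.1.1 and Cufflinks 2.2.1 on GRCm39, per the submitters' processing notes. The deposited coverage column, a signal per transcript, was used only for relative depth. The annotation release and the use of strand are not given in the sources used here. Read counts were not used, so depth in reads is unknown.

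Gene FPKM was summed over transcripts, scaled by median ratios and tested as log2(FPKM + 1) with limma 3.58.1 (trend, two-sided, Benjamini-Hochberg adjustment, threshold 0.05) in R 4.3.3. Genes needed a mean of 1 FPKM, a transcript of at least 300 nt and status OK. A fold change on this scale understates that of low genes. The fit was tested on simulated data. Shares were compared by exact permutation. Sequences came from the GRCm39 genome with GENCODE vM39, which held 99.1% of the transcripts, 74.3% of these with the same ends; levels use the files' own models. A comparison of 1 coding stretch over the 7 keratins is not reported here. The desmosome list matched 16 of its 17 genes. Genes named are the 7 keratins and other keratins of at least 1 FPKM. Also named are members among the 3 most abundant of a list and the 3 nearest in pattern. Hoxb13, Fabp6, Krt4, Krt5, Krt6a, Hspb1, Vil1, Cdh1, Muc3 and copies or overlapping genes of Krt8 and Krt18 were added after their values were seen. The members and lists were chosen with earlier results of these data known. Alternatives covered the pseudocount, scaling, filters, the trend, the replicate block, transcript choice and leaving out each library.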

Additional observations from a re-analysis of the deposited data

How the results depend on the processing

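Over 83 combinations of a keratin and an alternative, 0 passed the adjusted threshold and the lowest limma adjusted p was 0.195. The sign of the log2 difference turned in 9 of them. With levels scaled to the intestinal epithelial list it was -0.0604 for Krt18 and -0.055 for Krt19. With each library left out in turn, it ran from -0.11 to 0.31 for Krt8, from -0.19 to 0.26 for Krt18, from -0.25 to 0.34 for Krt19, from -0.43 to 0.0247 for Krt7 and from -0.72 to 0.0224 for Krt23; Krt20 stayed positive, from 0.11 to 0.38. The difference in type I share then ran from -1.05 to 0.95 percentage points, and that in the keratin share of the FPKM of genes with a transcript of at least 300 nt from -0.0923 to 0.0306 points. The type I share difference was 0.0071 points with Krt8-ps counted as Krt8, chosen after seeing the data.

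The count of genes called, 5 of 13771, was 0 with no filter (3531 at an unadjusted p under 0.05), 0 with no trend (2461) and 0 without transcripts under 300 nt (2577). It was 2 with a mean of at least 5 FPKM and 14 to 30 with 1 library left out, where the lone library is assumed to vary like the other group. The count of transcripts called, 1, was 6 with a mean of at least 5 FPKM and 0 to 0 with 1 library left out. With the sample number as a replicate block, 112 genes were called. Whether the numbers pair the samples is not stated. Deviations of same-numbered libraries had r = -0.134 over 13771 genes. With 2 libraries per group the crossed pairing gives 0.134 by construction, so this value cannot decide it. The crossed block, added after seeing the data, called 12 genes. The cause of these changes was not tested beyond the smaller number of genes or libraries. Values under 1 FPKM are limited by depth.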
